A study of Mus musculus with 6 samples.

Results

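The insulin-like growth factor (IGF) system was followed in RNA-seq counts of NIH/3T3 cells, an established line of mouse embryonic fibroblasts, through 10 of the 54752 genes in the count table. The 10 were taken by symbol as 2 ligands (Igf1, Igf2), 2 receptors (Igf1r, Igf2r) and 6 binding proteins (Igfbp2 to Igfbp7). The study asked how TGF-β1 alters these fibroblasts and what BI6727, an inhibitor of the kinase PLK1, does under TGF-β1. There were 3 groups of 2 libraries. Vehicle cells received PBS, TGF-β1 + DMSO cells received TGF-β1 at 1 ng/ml with the solvent DMSO, and TGF-β1 + BI6727 cells received TGF-β1 at 1 ng/ml with BI6727 at 5 μM, all for 72 h. No library had DMSO without TGF-β1, so the 2 agents cannot be told apart in the comparison with vehicle. BI6727 was likewise never given without TGF-β1, so TGF-β1 + BI6727 against vehicle measures both together. The labels do not say that replicates came from separate cultures, and the study's methods speak of biological replicates but give their number per group as 2 in one place and 3 in another. The p-values therefore measure the spread between these libraries, which may be technical. In a bulk culture, fewer cells that express a gene and less RNA per cell cannot be told apart.

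IGF-1 and IGF-2 are small secreted peptides related to insulin. They act through the tyrosine kinase receptor IGF1R, which recruits IRS adaptors and activates PI3K and AKT, whereas IGF2R carries IGF-2 and mannose 6-phosphate tagged enzymes to the lysosome. The IGF binding proteins hold the peptides outside the cell and release them when proteases cut them, and fibroblasts are a known source of several of them.

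The 6 libraries held 18362378 to 24452153 counts, and 9518 genes passed the filter of at least 10 CPM (counts scaled for library size) in more than 3 libraries. A gene was called when edgeR's quasi-likelihood test gave an adjusted p-value (Benjamini-Hochberg) under 0.01 and its fold change exceeded 2. Acta2, the smooth muscle actin used as a sign of the TGF-β1 response, was called higher in TGF-β1 + DMSO against vehicle (log2 fold change 2.30, adjusted p = 2.71e-05 by edgeR). It was also called higher in TGF-β1 + BI6727 against vehicle (1.81, adjusted p = 5.81e-05 by edgeR). Between the treated groups its log2 fold change was -0.495 and it was not called (348 and 326 normalized CPM with BI6727, 476 and 473 with DMSO). The 7 fibroblast markers all passed the filter, while the epithelial markers summed to at most 0.319 normalized CPM. Against vehicle, 0 of the 7 were called with TGF-β1 + DMSO and 2 were called lower with TGF-β1 + BI6727. Of all tested genes, 2.53% and 2.96% were called lower in these comparisons. The endothelial markers, none of which passed the filter, summed to 0.312 to 0.910 normalized CPM in vehicle, 2.89 to 3.77 in TGF-β1 + DMSO and 2.00 to 2.65 in TGF-β1 + BI6727, and their part in the results was not tested. In the libraries with TGF-β1 most of these counts were of Cdh5 (64 and 36 with DMSO, 22 and 44 with BI6727, beside 0 and 11 in vehicle). Pecam1 had 4 to 24 counts, Tek had at most 8 and Kdr had none. Of the leukocyte markers, Cd14 alone passed the filter, at 17.0 to 23.0 normalized CPM. Csf1r had 19 and 20 counts in vehicle, 47 and 26 in TGF-β1 + DMSO, and 36 and 24 in TGF-β1 + BI6727. Ptprc had at most 9 counts and Adgre1 had none. The muscle markers summed to at most 1.96 normalized CPM. The TGF-β1 + DMSO replicates were farther apart than the others, with an SD of the log2 differences between replicates of 0.377 over genes, beside 0.163 in vehicle and 0.147 in TGF-β1 + BI6727. Replicate 2 of that group was higher than replicate 1 over the 1904 tested genes with the smallest exonic length (median log2 difference 0.34). It was lower over the 1904 with the greatest (median -0.37).

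Of the 10 members, 5 passed the filter and were tested, namely Igf1r, Igf2r, Igfbp4, Igfbp6 and Igfbp7. Igfbp4 passed through the TGF-β1 libraries alone, since both vehicle libraries were under 10 normalized CPM. The other 5, both ligands among them, were at or near 0 counts. The members whose transcripts passed the filter in these cells were therefore the 2 receptors and 3 of the binding proteins.

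The 3 binding proteins that were expressed are shown first by the 250 bases before their RefSeq start (GRCm38.p6, gene strand, 5′ to 3′), because Igfbp6 and Igfbp7 were the members called and went in opposite directions. Capitals mark any of 4 motifs searched on both strands. These were CAGAC, the core bound by SMAD proteins, TGANTCA, the AP-1 site, TATAAA, the TATA box, and CCGCCC, the GC box. None of these motifs overlapped another in the 3 sequences.
Igfbp6, chr15:102143936-102144185, plus strand: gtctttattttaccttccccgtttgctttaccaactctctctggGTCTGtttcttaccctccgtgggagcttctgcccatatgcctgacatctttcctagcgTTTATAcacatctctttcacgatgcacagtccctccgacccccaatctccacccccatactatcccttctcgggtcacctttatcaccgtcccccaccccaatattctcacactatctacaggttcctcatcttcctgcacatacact
Igfbp7, chr5:77408046-77408295, minus strand: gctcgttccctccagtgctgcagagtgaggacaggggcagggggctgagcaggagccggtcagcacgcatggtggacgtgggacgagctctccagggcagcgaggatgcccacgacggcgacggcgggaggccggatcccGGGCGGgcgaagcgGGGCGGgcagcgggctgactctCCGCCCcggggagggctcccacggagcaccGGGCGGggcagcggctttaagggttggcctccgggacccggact
Igfbp4, chr11:99040994-99041243, plus strand: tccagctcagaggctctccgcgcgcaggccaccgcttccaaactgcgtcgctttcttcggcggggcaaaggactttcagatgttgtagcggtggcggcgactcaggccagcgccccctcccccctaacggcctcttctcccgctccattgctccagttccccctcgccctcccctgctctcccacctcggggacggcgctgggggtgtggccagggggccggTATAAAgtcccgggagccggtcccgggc

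The windows of Igfbp6 and Igfbp7 differed in base content. Igfbp6 had 49.6% G and C with 7 CpG, beside a median of 6 CpG over all 32851 windows in the table. Igfbp7 had 74% G and C with 26 CpG, and Igfbp4 had 69.2% with 22. The Igfbp6 window held 1 CAGAC match, on the opposite strand and beginning 206 bases before the start, as did 42.2% of all windows of this length. The Igfbp7 window held 4 GC boxes between 110 and 44 bases before the start, and 32.7% of all windows held at least 1. In the Igfbp4 window a TATA box began 28 bases before the start, and 12.4% of all windows held a TATAAA match on either strand. The match in Igfbp6 lay farther off, 148 bases before the start and on the opposite strand. The Igfbp6 window ended at 102144185, while the gene in the count table began at 102144362, and the bases between were not searched. Those of Igfbp4 and Igfbp7 ended within a few bases of their genes, so the windows do not cover like positions. No TGANTCA was found in these 3 windows, beside 6.75% of all windows. All 10 members had a window, 14 windows in total with several starts for Igf2 and Igfbp2, and 7 of the 14 held CAGAC. The part of base content or motifs in the direction of the fold changes was not tested.

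Among the ligands, Igf1 was scarcely detected. It had 4 and 0 counts in the vehicle libraries, 9 and 8 in TGF-β1 + DMSO, and 4 and 12 in TGF-β1 + BI6727. The 4 libraries with TGF-β1 had at least as many counts as either vehicle library, but no library had more than 12. When all genes with at least 10 counts in total were tested, the log2 fold change of Igf1 in TGF-β1 + DMSO against vehicle was 1.99 ± 1.19 (SE, n = 2 libraries a group; 95% interval -0.68 to 4.66, adjusted p = 0.295 by edgeR), so no difference was detectable at this depth. Igf1 lies on chromosome 10 (mm10 87858265 to 87937042, plus strand) and no other gene overlaps its exons.

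Igf2, the fetal ligand expressed from the paternal copy, had 0 counts in every library. A count of 0 allows up to 0.123 to 0.163 CPM per library, taken as 3 counts and covering counting error only. Of the exonic length of Igf2 (mm10 chromosome 7, 142650766 to 142666816, minus strand), 64.5% is shared with the genes Gm49394 on the same strand and Igf2os on the opposite strand, and the share of its 50-base windows found in another gene was 62.1%. The 0 is therefore uncertain for those stretches. Gm49394 had no count and Igf2os had 7 counts in vehicle replicate 1 and at most 2 elsewhere. H19, the untranslated RNA 72622 bases from Igf2 that is expressed from the maternal copy, also had 0 counts in all 6 libraries.

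Of the binding proteins, 3 were not expressed at a measurable level. Igfbp3, the main carrier of IGFs in serum, and Igfbp5, a matrix-bound form, had 0 counts in every library, and Igfbp2 had 1 count, in TGF-β1 + BI6727 replicate 1. None of the 3 shares exonic sequence with another gene. Igfbp2 and Igfbp5 are neighbours on chromosome 1, 5457 bases apart on opposite strands. Igfbp1, the liver form, which lies 3539 bases from Igfbp3 on chromosome 11, and Igfbpl1, a more distant relative, had 0 counts as well.

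The levels of the expressed members ranged widely within a library. Measured per length, as normalized CPM per kb of exons, the order in vehicle was Igfbp6 (409 ± 30.4), Igfbp7 (113 ± 18.6), Igf2r (25.1 ± 1.94), Igf1r (2.83 ± 0.340) and Igfbp4 (1.89 ± 0.285; SD, n = 2 libraries here and for all group levels). No neighbours in this order overlapped in their libraries. In TGF-β1 + DMSO the order of levels per kb was Igfbp7 (243 ± 0.151), Igfbp6 (116 ± 18.3), Igf2r (33.7 ± 16.6), Igfbp4 (3.68 ± 0.0692) and Igf1r (2.27 ± 0.876). TGF-β1 + BI6727 had the same order, with Igfbp7 at 178 ± 36.2, Igfbp6 at 115 ± 2.67, Igf2r at 41.8 ± 0.147, Igfbp4 at 3.10 ± 0.135 and Igf1r at 2.54 ± 0.100 normalized CPM per kb. Igfbp6 and Igfbp7, and likewise Igf1r and Igfbp4, thus stood in the reverse order in the vehicle group and in the groups with TGF-β1. TPM (counts per exonic length, scaled to an equal sum in each library) gave the same order in each group.

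**Figure D1:**
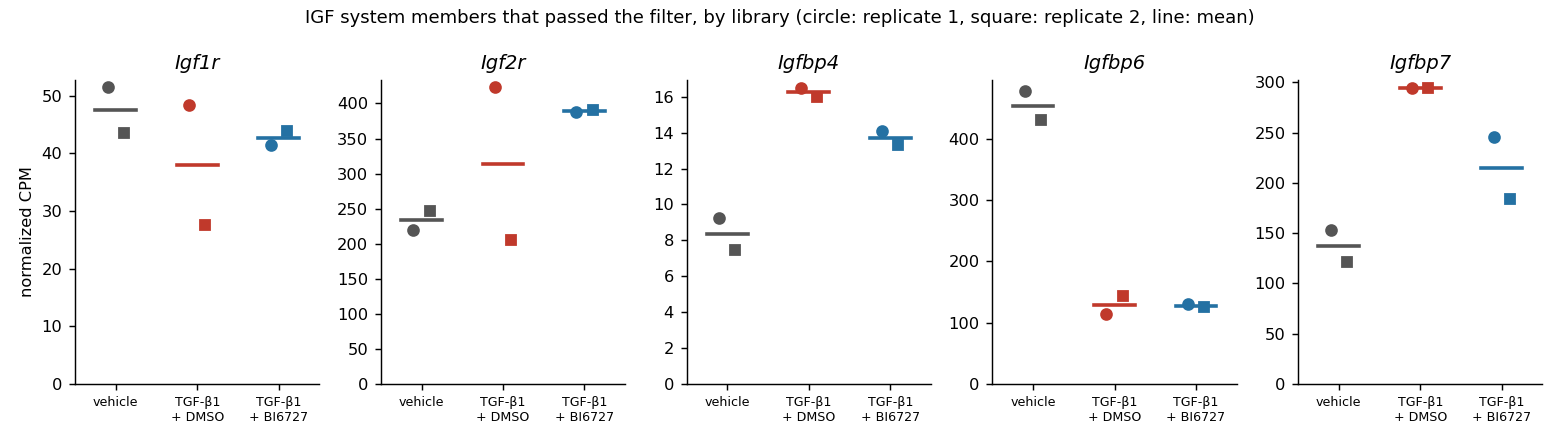
Normalized CPM (vertical axis, from 0, a separate scale for each gene) of the 5 members that passed the filter, in the 2 libraries of each group, with the group mean as a line. Igfbp6 was 479 and 431 in vehicle and 114 to 143 in the 4 libraries with TGF-β1, while Igf2r was 423 and 205 in the 2 TGF-β1 + DMSO libraries.

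TGF-β1 + DMSO against vehicle addressed the response of the fibroblasts to TGF-β1. Igfbp6 fell and Igfbp7 rose, so that 1 of the 5 tested members was called lower and 1 higher, beside 2.53% of all tested genes called lower and 2.56% called higher. With 5 members these counts say nothing of the family as a whole. For 3 of the 5, Igfbp4, Igfbp6 and Igfbp7, the libraries of the 2 groups did not overlap, beside 62.9% of all tested genes. The median log2 fold change was 0.43 over the 5 members and -0.01 over all tested genes.

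Igfbp6 encodes a binding protein with a preference for IGF-2 over IGF-1. Its normalized CPM were 479 and 431 in vehicle and 114 and 143 in TGF-β1 + DMSO. Both treated libraries were far under both vehicle libraries. The group means were 455 ± 33.8 and 129 ± 20.3, a 3.54-fold lower level (log2 fold change -1.82 ± 0.130 SE, 95% interval -2.13 to -1.52, adjusted p = 0.000166 by edgeR). Igfbp6 lies on chromosome 15 (mm10 102144362 to 102149511, plus strand) in 4 exon blocks of 1112 bases that no other gene overlaps. It was called in each of the 12 alternative analyses, with log2 fold changes between -1.98 and -1.68.

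Igfbp7 encodes a secreted protein of the matrix that binds IGFs weakly. Its normalized CPM were 153 and 121 in vehicle and 294 and 294 in TGF-β1 + DMSO. The treated libraries were close to each other and above both vehicle libraries. The log2 fold change was 1.10 ± 0.166 (SE), or 2.14-fold higher, with a 95% interval of 0.71 to 1.49 and an adjusted p of 0.00400 by edgeR. The fold was near the minimum of 2 that a call needs, and the call was lost without vehicle replicate 1 (log2 fold change 1.27, adjusted p = 0.0314), without vehicle replicate 2 (0.94, adjusted p = 0.0574) and when each library's trend on gene length was removed (0.98, adjusted p = 0.000890). Igfbp7 lies on chromosome 5 (mm10 77349240 to 77408041, minus strand), and 7.03% of its 1209 exonic bases overlap Polr2b on the opposite strand, which had 1686 to 2441 counts.

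Igfbp4, whose protein inhibits IGF action until the protease PAPP-A cuts it, had 9.24 and 7.46 normalized CPM in vehicle and 16.5 and 16.0 in TGF-β1 + DMSO. The groups did not overlap. Its log2 fold change of 0.96 ± 0.159 (SE, 95% interval 0.59 to 1.34, adjusted p = 0.00587 by edgeR) passed the threshold on p but was 1.95-fold, under the minimum fold, so it was not called. Igfbp4 passed the filter only where it was high, so whether it was tested depended on this difference. Under lower filters its log2 fold change was 0.971 (edgeR's filterByExpr) and 0.973 (at least 10 counts in total). Igfbp4 lies on chromosome 11 (mm10 99041244 to 99054392, plus strand).

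The receptors were not called, and the 2 TGF-β1 + DMSO libraries disagreed on each. Igf1r, the signalling receptor, had 51.6 and 43.5 normalized CPM in vehicle and 48.4 and 27.6 in TGF-β1 + DMSO. The first treated library was inside the range of vehicle and the second was under it. The log2 fold change was -0.32 ± 0.244 (SE, 95% interval -0.89 to 0.25, adjusted p = 0.363 by edgeR). Without TGF-β1 + DMSO replicate 1 it was -0.79 (adjusted p = 3.23e-05), under the minimum fold, and without replicate 2 it was 0.04.

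Igf2r, the clearance receptor, had 220 and 246 normalized CPM in vehicle and 423 and 205 in TGF-β1 + DMSO. The first treated library was above both vehicle libraries and the second was below them. The log2 fold change was 0.43 ± 0.288 (SE, 95% interval -0.25 to 1.10, adjusted p = 0.309 by edgeR). It was 0.87 (adjusted p = 2.20e-08) without TGF-β1 + DMSO replicate 2 and -0.20 (adjusted p = 0.0484) without replicate 1. The direction of Igf2r against vehicle thus rested on which of the 2 libraries was used. Igf1r lies on chromosome 7 (mm10 67952827 to 68233668, plus strand) and Igf2r on chromosome 17 (mm10 12682406 to 12769664, minus strand), neither with an overlapping gene.

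Among the 5 tested members, those whose TGF-β1 + DMSO libraries were far apart were the 2 with the greatest exonic length. Between replicate 2 and replicate 1 of TGF-β1 + DMSO, log2 CPM differed by -0.81 for Igf1r, with 16791 exonic bases, and by -1.05 for Igf2r, with 9308. For Igfbp4, with 4416 bases, the difference was -0.04, for Igfbp7, with 1209, it was 0.00, and for Igfbp6, with 1112, it was 0.32. In the other groups the 5 members differed between replicates by -0.42 to 0.16. The part of length in the receptor values was not tested, and removing the trend of each library on length left both receptors uncalled. In TGF-β1 + DMSO against vehicle the log2 fold changes were then -0.08 for Igf1r (adjusted p = 0.666 by edgeR) and 0.55 for Igf2r (adjusted p = 0.0445). In TGF-β1 + BI6727 against vehicle they were -0.05 (adjusted p = 0.793 by edgeR) and 0.82 (adjusted p = 0.00703), under the minimum fold.

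**Figure D2:**
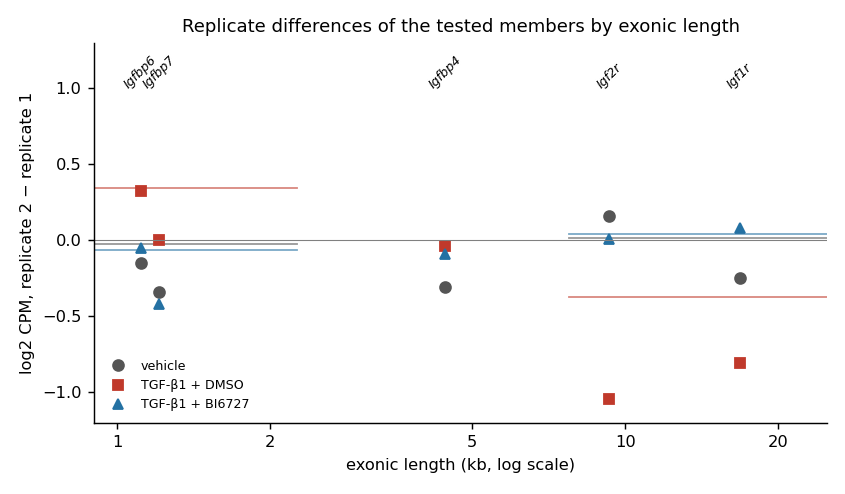
Difference in log2 CPM between replicate 2 and replicate 1 (vertical axis) against exonic length in kb (log scale) for the 5 tested members in each group, with horizontal lines for the median of all tested genes among the 1904 shortest and the 1904 longest. Igf2r and Igf1r in TGF-β1 + DMSO lie at -1.05 and -0.81, below the median of -0.37 of the longest genes.

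The makeup of the binding-protein transcripts differed between the vehicle libraries and those with TGF-β1. As a share of the summed level per kb of Igfbp2 to Igfbp7, Igfbp6 made up 77.0% and 79.2% in vehicle, 29.4% and 34.3% in TGF-β1 + DMSO, and 36.1% and 42.1% in TGF-β1 + BI6727. Igfbp7 made up 22.6% and 20.5%, then 69.6% and 64.8%, then 62.9% and 56.8%. The shares did not overlap between vehicle and the other groups. Igfbp4 was at most 1.12% in any library. The summed level itself was 559 and 489 normalized CPM per kb in vehicle, 350 and 375 in TGF-β1 + DMSO, and 323 and 268 in TGF-β1 + BI6727, so it was lower in each library with TGF-β1. These shares are a description and were not tested, since an exact permutation test of 2 against 2 libraries reaches no p under 0.333.

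**Figure D3:**
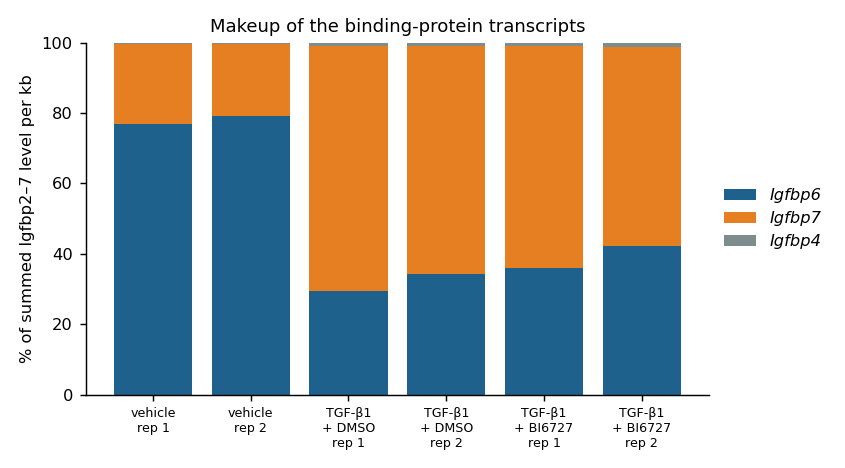
Share (%) of the summed level per kb of Igfbp2 to Igfbp7 taken by Igfbp6, Igfbp7 and Igfbp4 in each library, as stacked bars from 0 to 100. Igfbp6 is the larger part in both vehicle libraries (77.0% and 79.2%) and Igfbp7 in the 4 libraries with TGF-β1 (56.8% to 69.6%).

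BI6727 against DMSO under TGF-β1 addressed the effect of the PLK1 inhibitor. None of the 5 tested members was called, and none of the 9518 genes tested (0.00%), with a smallest adjusted p of 0.0565 by edgeR. An unadjusted p under 0.05 was found for 6.68% of the genes, and DESeq2 called 11 genes lower and 0 higher, with 0 members among them. The libraries of the 2 groups did not overlap for 2 of the 5 members, Igfbp4 and Igfbp7, beside 34.1% of all tested genes.

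Igfbp7 had 246 and 184 normalized CPM in TGF-β1 + BI6727, both under the 294 of each TGF-β1 + DMSO library and above both vehicle libraries. The log2 fold change between the 2 treated groups was -0.45 ± 0.164 (SE, 95% interval -0.84 to -0.07), with an adjusted p of 0.701 by edgeR. Its size rested on the BI6727 libraries, at -0.68 without replicate 1 and -0.26 without replicate 2 (adjusted p = 1.00 in each), and without TGF-β1 + DMSO replicate 1 or 2 it was -0.45 (adjusted p = 0.0110) or -0.47 (adjusted p = 0.0299), not called in any of these. Igfbp4 had 14.1 and 13.3 normalized CPM with BI6727 and a log2 fold change of -0.25 (95% interval -0.61 to 0.12, adjusted p = 0.786 by edgeR).

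Igfbp6 had 130 and 125 normalized CPM with BI6727, inside the range of 114 to 143 of TGF-β1 + DMSO. The log2 fold change was -0.01 with a 95% interval of -0.31 to 0.29 (adjusted p = 0.986 by edgeR). Igf2r had 388 and 390 normalized CPM (log2 fold change 0.31, 95% interval -0.36 to 0.99, adjusted p = 0.859 by edgeR). Igf1r had 41.5 and 43.9 (0.17, 95% interval -0.41 to 0.74, adjusted p = 0.907 by edgeR). The BI6727 libraries were close to each other for both receptors and lay between the 2 TGF-β1 + DMSO libraries. Without TGF-β1 + DMSO replicate 1 the log2 fold changes were 0.93 for Igf2r (adjusted p = 4.71e-07) and 0.63 for Igf1r (adjusted p = 0.00117), and without replicate 2 they were -0.13 and -0.19.

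TGF-β1 + BI6727 against vehicle measured TGF-β1 and BI6727 together, since no library had BI6727 alone. It shares its control libraries with the first comparison. Igfbp6 fell 3.57-fold (log2 fold change -1.84 ± 0.130 SE, adjusted p = 0.000158 by edgeR) and was the only member of the 5 tested that was called, beside 2.96% of all tested genes called lower and 2.34% called higher. The libraries did not overlap for 4 of the 5 members, beside 76.8% of all tested genes. These were Igfbp6, which was lower, and Igf2r, Igfbp4 and Igfbp7, which were higher. Igfbp4 had a log2 fold change of 0.72 (95% interval 0.34 to 1.09, adjusted p = 0.0173 by edgeR) and Igfbp7 of 0.65 (0.26 to 1.03, adjusted p = 0.0283). Igf2r had a log2 fold change of 0.74 (0.06 to 1.42, adjusted p = 0.106) and Igf1r of -0.15 (-0.72 to 0.42, adjusted p = 0.682). The main fit also draws its spread from the TGF-β1 + DMSO replicates, which lay farther apart. In a fit of only these 2 groups the adjusted p-values by edgeR were 1.23e-08 for Igf2r, 4.41e-05 for Igfbp7, 0.000962 for Igfbp4 and 0.194 for Igf1r. None of these genes passed the minimum fold there, so none was called.

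**Figure D4:**
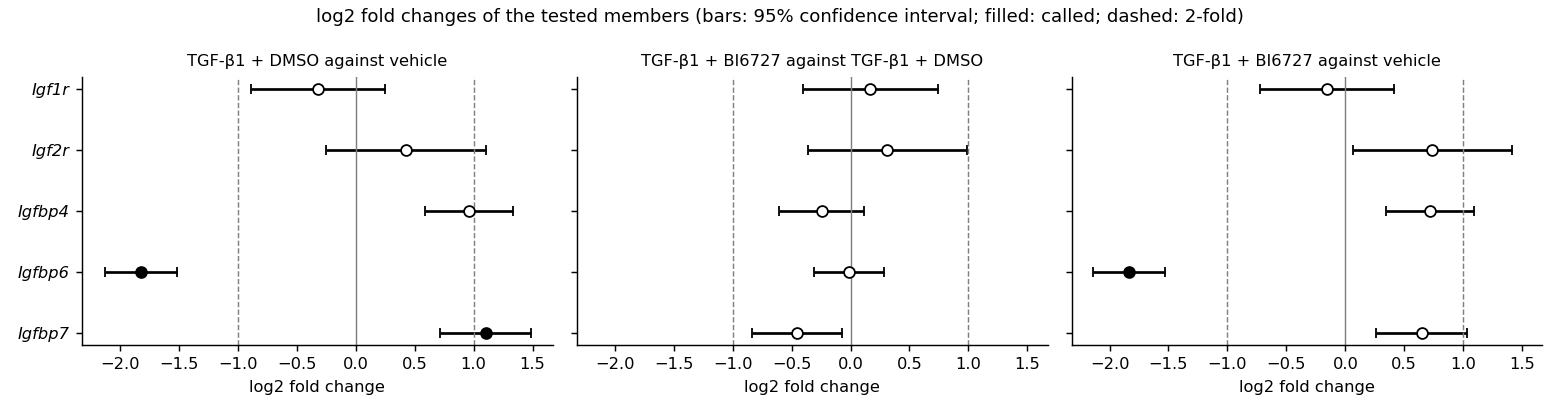
Log2 fold change (horizontal axis) of the 5 tested members in the 3 comparisons, with 95% confidence intervals as bars, filled points for called members and dashed lines at a 2-fold change. Igfbp6 lies at -1.82 and -1.84 against vehicle and at -0.01 between the treated groups.

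Further genes of the pathway were taken as a list of 45, of which 35 passed the filter. In TGF-β1 + DMSO against vehicle 3 of the 35 were called higher and 4 lower, beside the 2.56% and 2.53% of all tested genes given above. In TGF-β1 + BI6727 against vehicle 2 were called higher and 3 lower, beside 2.34% and 2.96% of all tested genes, and between the treated groups none was called. The median log2 fold change of the list was -0.19, -0.17 and 0.02 in these comparisons, beside -0.01, 0.00 and 0.00 over all tested genes. Among the genes called higher, Adam12 and Stc2 passed the filter through the TGF-β1 libraries alone. The counts of genes called higher therefore say nothing of the list.

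Of the proteins that cleave or guard the binding proteins, 5 of 9 were tested, and Adam12, Stc2 and C1s1 were called in TGF-β1 + DMSO against vehicle. Adam12 and Stc2 were under 10 normalized CPM in vehicle and passed the filter through the TGF-β1 libraries alone, so their number says nothing of the list. Adam12, a metalloprotease that cuts IGFBP-3 and IGFBP-5, had 3.48 and 3.96 normalized CPM in vehicle, 65.0 and 41.8 in TGF-β1 + DMSO and 56.2 and 51.1 in TGF-β1 + BI6727. It rose in both comparisons with vehicle, by a log2 fold change of 3.84 ± 0.248 (SE, adjusted p = 0.000111 by edgeR) with DMSO and 3.85 (adjusted p = 0.000116) with BI6727. The transcripts of IGFBP-3 and IGFBP-5 were themselves at 0 counts in these libraries.

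C1s1, a gene for the complement protease C1s, had 133 and 111 normalized CPM in vehicle, 14.7 and 11.8 in TGF-β1 + DMSO and 9.96 and 13.9 in TGF-β1 + BI6727. It fell in both comparisons with vehicle, with log2 fold changes of -3.20 (adjusted p = 0.000102 by edgeR) and -3.35 (adjusted p = 9.16e-05). Its value is uncertain, since 35.1% of its 50-base windows also occur in another gene.

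Stc2, a secreted inhibitor of PAPP-A, had 8.98 and 9.78 normalized CPM in vehicle and 20.1 and 20.2 in TGF-β1 + DMSO. It rose there by 1.10 on the log2 scale (adjusted p = 0.00181 by edgeR). With BI6727 it had 17.6 and 18.2 and was not called (log2 fold change 0.93, adjusted p = 0.00337, 1.91-fold). Pappa itself had 18.1 in each vehicle library, 17.2 and 9.24 in TGF-β1 + DMSO, and 15.9 and 11.9 in TGF-β1 + BI6727. It was not called (log2 fold change -0.45, adjusted p = 0.281 by edgeR, with DMSO).

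Among the adaptors and the insulin receptor family, Grb10 and Grb14 fell in TGF-β1 + DMSO. Both encode adaptors that bind the insulin and IGF-1 receptors and dampen their signal. Grb10, an imprinted gene, had 453 and 447 normalized CPM in vehicle and 255 and 174 in TGF-β1 + DMSO (log2 fold change -1.07, adjusted p = 0.00497 by edgeR). With BI6727 it had 234 in each library, a log2 fold change of -0.94 that was under the minimum fold. Grb14 had 123 and 134 in vehicle, 59.0 and 60.6 with DMSO (log2 fold change -1.10, adjusted p = 0.000458 by edgeR) and 51.3 and 47.9 with BI6727 (-1.37, adjusted p = 0.000178). The treated libraries of both genes were under both vehicle libraries.

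Insr, the insulin receptor, had 24.9 and 24.7 normalized CPM in vehicle, 22.0 and 13.2 in TGF-β1 + DMSO, and 20.6 and 20.4 in TGF-β1 + BI6727. The log2 fold change with DMSO was -0.49 (adjusted p = 0.157 by edgeR). Irs1 and Irs2, the adaptors that couple the receptors to PI3K, had log2 fold changes of -0.90 (adjusted p = 0.0819 by edgeR) and -0.15 (adjusted p = 0.677). None of the 3 was called in any comparison. Irs1 ranged from 17.9 to 21.2 in vehicle and from 6.79 to 14.2 with DMSO, and 30.9% of its exonic length overlaps Gm9747 on the opposite strand, which had no count. Irs2 was 28.2 and 26.1 in vehicle and 30.7 and 18.4 with DMSO. TGF-β1 + DMSO replicate 2 was the lowest of the 6 libraries for Insr, Irs1, Irs2 and Pappa, which have 6323 to 13746 exonic bases. Without that library the log2 fold changes were -0.16 for Insr, -0.45 for Irs1, 0.19 for Irs2 and -0.06 for Pappa, and without replicate 1 the one of Irs1 was -1.53 (adjusted p = 3.47e-06 by edgeR), which was called.

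In the PI3K and AKT arm, 1 of 17 tested genes was called in each comparison with vehicle, in each case lower, beside 2.53% and 2.96% of all tested genes called lower. A single gene of 17 is near that background. This was Pik3r1, which encodes the main regulatory subunit of PI3K. It had 134 normalized CPM in each vehicle library, 46.9 and 33.0 in TGF-β1 + DMSO and 41.7 and 42.4 in TGF-β1 + BI6727. It fell with log2 fold changes of -1.75 (adjusted p = 0.000502 by edgeR) and -1.68 (adjusted p = 0.000565). Of the RNA-binding proteins and imprinted genes linked to Igf2, Plagl1, an imprinted zinc finger factor, rose from 9.87 and 10.4 in vehicle to 32.3 and 23.4 with DMSO (log2 fold change 1.46, adjusted p = 0.00187 by edgeR) and 23.6 and 24.5 with BI6727 (1.25, adjusted p = 0.00337).

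Adam12 and C1s1 kept their calls against vehicle in the 12 alternative analyses of each comparison, as did Grb14 in TGF-β1 + BI6727. In TGF-β1 + DMSO against vehicle, the calls of Stc2, Grb10, Grb14, Pik3r1 and Plagl1 were lost without either vehicle replicate. There the adjusted p-values were 0.0121 to 0.0645 by edgeR in a fit of fewer libraries, while the log2 fold changes stayed close to those of all libraries (-1.76 and -1.75 for Pik3r1, at least 1.41 for Plagl1, 1.03 and 1.16 for Stc2, -1.17 and -1.04 for Grb14, -1.06 and -1.08 for Grb10). The call of Grb10 was also lost without TGF-β1 + DMSO replicate 2 (log2 fold change -0.80). In TGF-β1 + BI6727 against vehicle, the calls of Pik3r1 and Plagl1 were lost without any 1 of the vehicle or BI6727 libraries, at adjusted p-values of 0.0113 to 0.0567 by edgeR, with log2 fold changes of -1.69 to -1.66 for Pik3r1 and 1.20 to 1.29 for Plagl1.

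The genes whose pattern was most like that of a called member were found as those with the smallest root mean square difference in centred log2 CPM over the 6 libraries. For Igfbp6 these were Cebpd, a transcription factor of the C/EBP family (0.0484), Dlk1, an imprinted transmembrane protein of preadipocytes (0.0627), and Fgf7, a growth factor for epithelial cells (0.0872). Their mean normalized CPM in vehicle, TGF-β1 + DMSO and TGF-β1 + BI6727 were 317, 90.3 and 88.9 for Cebpd, and 354, 99.6 and 111 for Fgf7. For Igfbp7 they included Igfbp4 (0.134) and Ddit4, an inhibitor of mTOR signalling (0.134). Ddit4 had group means of 80.8, 168 and 132. The likeness is a description over libraries that were also used for the tests.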

How the data were processed

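RNA depleted of rRNA from 6 NIH/3T3 libraries was sequenced by the authors as single 50-base reads on a BGISEQ-500. According to the study's methods and the submitters' processing notes, the authors mapped reads to mm10 with Subjunc of Subread 1.6.4, used featureCounts for read counts per gene of Gencode M20, and deposited these raw counts. The strand setting is not given in the sources used here. Groups and replicate numbers come from the sample labels. Symbols were matched by Ensembl identifier for 54723 of 54752 genes. The members and lists were chosen with earlier results of these data known.

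All 6 libraries were fitted together in R 4.3.3 with edgeR 4.0.16 (TMM, quasi-likelihood test, no covariate, 3 residual degrees of freedom). The filter and the threshold on adjusted p follow the study's methods, the minimum fold of 2 is the one its results use (its methods state an absolute fold change above 1), and p-values were adjusted over all 9518 genes. The SE was obtained from the log2 fold change and the square root of F. Normalized CPM use the TMM-scaled sum over tested genes as library size, and log2 CPM had a prior count of 1. Positions and exonic lengths are those in the count table, and shared 50-base windows come from Gencode M21 transcripts. The fit was tested on simulated data.

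Text names all members, listed pathway genes called in any comparison, and Igfbp1, Pappa, Insr, Irs1, Irs2 and H19 whatever their values, plus the 3 genes most like each called member and Acta2. Of the genes this rule selects, 1 is not reported here. Alternatives were DESeq2 1.42.0, its size factors in edgeR, other low-count filters, fits of only the 2 groups compared, a replicate block, removal of each library's lowess trend on exonic length (span 0.3), no minimum fold, and each replicate left out in turn. A crossed replicate block was added after seeing the data. Library totals of 18362378 to 24452153 counts make 3 counts 0.123 to 0.163 CPM.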

Additional observations from a re-analysis of the deposited data

How the results depend on the processing

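Against vehicle, Igfbp6 kept its direction and its call in the 12 alternatives, and the members called in the 3 comparisons stayed at 2, 0 and 1 under DESeq2, its size factors, both other filters, only the 2 groups compared and the replicate block. With no minimum fold, Igfbp4 was also called with DMSO. In TGF-β1 + DMSO against vehicle, 1 member was called with the length trend removed, and 1 to 2 with a replicate left out. Over replicates left out, the log2 fold change against vehicle with DMSO ran from -0.79 to 0.04 for Igf1r, from -0.20 to 0.87 for Igf2r and from -0.56 to 0.19 for Irs2. Between the treated groups it ran from -0.19 to 0.63 for Igf1r, from -0.13 to 0.93 for Igf2r and from -0.16 to 0.15 for Igfbp6, and Igfbp6 was at 0.049 with the length trend removed. The calls of Grb10 and Grb14 with DMSO were lost with the length trend removed (-0.93 and -0.99), and that of Grb10 with only the 2 groups compared (adjusted p = 0.0189 by edgeR). The causes of these changes were not tested.

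Over all genes, 244 were called higher and 241 lower in TGF-β1 + DMSO against vehicle, and 223 and 282 in TGF-β1 + BI6727 against vehicle. The counts were 402 and 472, and 366 and 542, with edgeR's filterByExpr. With at least 10 counts in total they were 413 and 488, and 367 and 562, and with no minimum fold 468 and 467, and 470 and 570. The first of these 3 settings and the second tested more genes (14604 and 17936). Genes called lower between the treated groups numbered 11 by DESeq2, 6 when the length trend was removed and 2 under the minimum of 10 counts in total. With a replicate left out, TGF-β1 + DMSO against vehicle gave 79 to 305 higher and 48 to 487 lower, TGF-β1 + BI6727 against vehicle 81 to 129 and 82 to 119, and the treated groups 0 to 50 and 0 to 17. Such a fit has fewer libraries, and the lone library is assumed to vary like the other groups.

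Same-numbered libraries deviated from their group means with r = -0.11, -0.26 and 0.05 across genes, so the numbers were not taken as pairs. With the replicate block Igfbp6 was at -1.83 and Igfbp7 at 1.12 in TGF-β1 + DMSO against vehicle, and 224 genes were called higher and 229 lower. A crossed block called 246 and 245. At this depth a count of 0 allows up to about 3 counts. This limits what can be said of Igf2, Igfbp3 and Igfbp5, and of Igf1 and Igfbp2 in the libraries where they were at 0.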
